A study of Mus musculus with 23 samples.

Results

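The microRNAs of hippocampal synaptosomes were compared with those of neurites grown through microfluidic chambers. Synaptosomes are nerve terminals that break off and reseal when brain tissue is homogenized. They came from the hippocampi of C57B/6J male mice aged 3 months, in 3 pools of many animals each, called pool 1, 2 and 3 here. The neurites came from hippocampal neurons of CD1 mouse embryos (E17) kept for 14 days in vitro, whose processes grew into a separate compartment of the chamber that was cut out for RNA extraction. Their 6 unstimulated small RNA libraries are called neurite library 1, 4, 5, 7, 11 and 42. Neither group carried a transgene or a treatment that the labels name. The 9 libraries were chosen by their tables, out of 23 samples in the series. They gave counts for 1978 microRNA names, of which 1067 had a count in at least 1 library. Small RNA of the synaptosomes was sequenced with the NEBNext kit, which ligates adapters, and that of the neurites with the SMARTer kit, which adds a tail of A to the RNA. Strain, age, preparation, kit and depth all went with the group, so their parts in any difference cannot be told apart. The labels do not say that the neurite libraries were separate cultures, so p-values measure only the spread between these libraries.

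A microRNA is cut from a hairpin precursor whose arms give a 5p and a 3p strand. The guide strand is kept in Argonaute and the passenger strand is mostly degraded. The guide pairs with messenger RNAs mainly through its seed, bases 2 to 8, and lowers their translation or stability. In neurons some microRNAs act in dendrites and axon terminals, where they limit local translation until activity releases it.

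The groups were led by different sequences. The 5 highest microRNAs of synaptosomes are shown first because each had at most 13 counts over all neurite libraries. The capitals mark the seed, and positions are those of the first RefSeq locus in GRCm38.p6.
miR-128-3p: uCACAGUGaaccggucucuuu
miR-9-5p: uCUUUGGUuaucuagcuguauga
miR-127-3p: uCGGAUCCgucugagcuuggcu
miR-26a-5p: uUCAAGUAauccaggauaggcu
miR-99a-5p: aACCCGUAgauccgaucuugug
These 5 seeds differ from each other. miR-128-3p (chr1:128202404-128202424, plus strand) restrains neuronal excitability, and miR-9-5p (chr13:83738821-83738843, plus strand) marks the neural lineage. miR-127-3p (chr12:109592888-109592909, plus strand) is a maternally expressed microRNA of the imprinted Dlk1-Dio3 region. miR-26a-5p stands at chr10:126995543-126995564 and miR-99a-5p at chr16:77598940-77598961, both on the plus strand.

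The let-7 family is shown because its members share the seed GAGGUAG and yet fell into different orders in the groups. The first 3 sequences led the family in synaptosomes and the next 3 took most of it in neurites.
let-7f-5p: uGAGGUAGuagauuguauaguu
let-7i-5p: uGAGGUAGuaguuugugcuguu
let-7g-5p: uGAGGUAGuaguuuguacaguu
let-7c-5p: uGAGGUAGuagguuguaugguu
let-7b-5p: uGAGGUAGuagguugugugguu
let-7a-5p: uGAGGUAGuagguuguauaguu
let-7f-5p (chr13:48537889-48537910) and let-7a-5p (chr13:48538239-48538260) stand on the minus strand, as does let-7i-5p (chr10:122985698-122985719). let-7g-5p (chr9:106178846-106178867), let-7c-5p (chr15:85706616-85706637) and let-7b-5p (chr15:85707325-85707346) stand on the plus strand.
Both strands of let-7d are shown because the strand with more counts was not the same in the groups. Both come from chromosome 13, the 5p strand from chr13:48536078-48536099 and the 3p strand from chr13:48536024-48536045, minus strand.
let-7d-5p: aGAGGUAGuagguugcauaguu
let-7d-3p: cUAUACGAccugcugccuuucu

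The names that were high in neurites and at or near 0 in synaptosomes are shown because several of them are repeated through the genome or rich in G and C.
miR-706: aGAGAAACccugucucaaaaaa
miR-3473b: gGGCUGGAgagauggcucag
miR-3473e: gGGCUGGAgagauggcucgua
miR-690: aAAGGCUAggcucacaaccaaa
miR-5126: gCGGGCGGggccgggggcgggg
miR-2137: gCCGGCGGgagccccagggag
miR-1895: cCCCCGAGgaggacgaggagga
miR-5119: cAUCUCAUccuggggcugg
miR-6240: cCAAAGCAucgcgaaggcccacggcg
The whole sequence of miR-706 (annotated at chr6:120034290-120034311, minus strand) had 21370 exact copies on the 21 mouse chromosomes, counting both strands. That of miR-3473b (chr10:41670774-41670793, plus strand) had 25146 copies and that of miR-690 (chr16:28599940-28599961, minus strand) had 599. All of these copies lay in sequence that the assembly marks as repeat. miR-3473e had 1 copy over its full length, but its first 18 bases had 28537, as many as those of miR-3473b, with which it shares the seed GGCUGGA. The miR-706 sequence also stood in transcripts of 208 annotated GENCODE genes other than microRNA genes, and the miR-3473b sequence in those of 344. Only 12 of the 1679 names with a RefSeq sequence (0.715%) had 20 or more exact copies, and 1543 had a single one. miR-3473e stands at chr5:31667296-31667316 (minus strand). miR-5126 (chr1:84695890-84695911, plus strand) and miR-2137 (chrX:72992113-72992133, plus strand) had 2 and 1 copies and consisted of 100% and 85.7% G and C. miR-1895 (chr3:134240515-134240536, minus strand), miR-5119 (chr11:98262638-98262656, plus strand) and miR-6240 (chr5:114851973-114851998, plus strand) each had 1 copy.

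The libraries differed greatly in depth. The synaptosome pools held 6721076, 13906790 and 20546179 microRNA counts, and the neurite libraries 475 to 2104, 6797 in all. In a neurite library 1 count was therefore worth 475 to 2105 CPM, counts scaled to a library total of 1000000 microRNA counts. Over the 6 libraries together, a microRNA with no count could have been present at up to 441 CPM (3 counts of the total). Counting only the highest entry of each name, microRNAs made up 99.8% ± 0.0378 of microRNA and snoRNA counts in synaptosomes (SD, n = 3). In neurites they made up 3.92% ± 2.90 (SD, n = 6), and snoRNAs, small nucleolar RNAs that guide modification of ribosomal RNA, took the rest. The neurite libraries ranged from 0.928% to 8.25% and did not overlap the pools (exact two-sided permutation test, p = 0.0238, the smallest that 3 against 6 libraries can give). With all entries counted, as in the totals above, the shares were 99.9% ± 0.0246 (SD, n = 3) and 4.91% ± 3.72 (SD, n = 6). The number of names at equal depth differed by less than the spread of the neurite libraries. At a common depth of 475 counts, 72.6 ± 1.53 names were expected in synaptosomes (SD, n = 3) and 67.0 ± 7.99 in neurites (SD, n = 6; exact two-sided permutation test, p = 0.357).

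The classes of names took different shares in the groups. Numbers in miRBase follow the order of discovery, and low numbers hold most of the abundant, conserved microRNAs. The shares here and of the lists below count only the highest entry of each name, out of the counts of all entries. Further entries of a name can count the same reads again. miR-9-5p, for example, had 2494146, 2494183 and 2494151 counts in the pools at miR-9-1, miR-9-2 and miR-9-3. The total of all entries was 1.55 times the sum of the highest entries in synaptosomes and 1.25 times in neurites (means). Scaling to this total thus lowers shares and CPM more in synaptosomes. Counted so, names below miR-500 took 49.7% ± 0.480 in synaptosomes (SD, n = 3) and 16.4% ± 2.01 in neurites (SD, n = 6). Names from miR-500 to miR-999 took 1.26% ± 0.517 and 18.9% ± 8.72. Names from miR-1000 upwards took 0.611% ± 0.239 and 23.4% ± 8.72. The neurite libraries lay between 13.5% and 37.3% for this last class, and no pool reached 1%. let-7 names, guides and passengers, took 13% ± 2.94 and 21.3% ± 8.08, with overlap between the groups. The remaining counts were further entries of names with several precursors, which belong to these same classes but are left out of their shares. These shares are a description and were not tested.

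**Figure D1:**
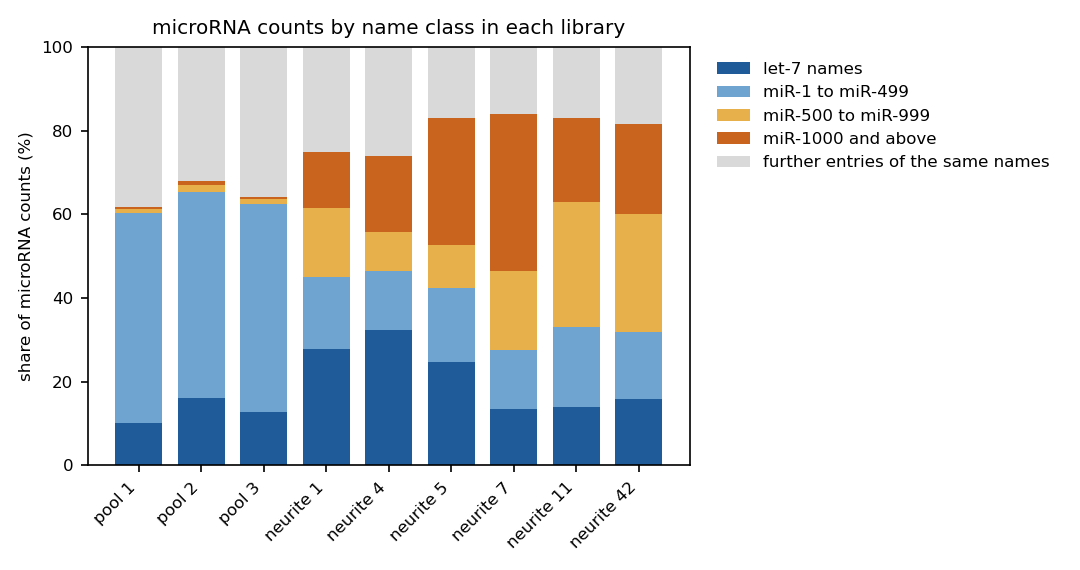
Share of each library's microRNA counts (vertical axis, %) by class of name, for 3 synaptosome pools and 6 neurite libraries; grey marks further entries of the same names. Without the further entries, names below miR-500 filled about 49.7% of each synaptosome pool and 16.4% of a neurite library on average. Names from miR-1000 upwards filled 0.611% and 23.4%.

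Few microRNAs were high in both groups. A mean of 1000 CPM was reached by 69 names in synaptosomes and 61 in neurites. Of these, 18 were shared, which is 26.1% of the synaptosome names and 29.5% of the neurite names. Of the 61 neurite names, 18 had a count in all 6 neurite libraries. Of the 69 synaptosome names only 6 did. Of the 61 neurite names, 23 lay under 10 CPM in synaptosomes and 4 (miR-706, miR-709, miR-714 and miR-5106) had no synaptosome count at all. The mean levels of miR-709, miR-714 and miR-5106 in neurites were 2298, 1802 and 2299 CPM. They rest on 16, 11 and 11 counts, each in 5 of the 6 libraries. These means were 31534-, 24727- and 31550-fold above the level of 3 counts over all pools, with no allowance for counting error in neurites.

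The main test across microRNAs was limited to names whose levels passed edgeR's filter. edgeR's filter kept 32 names, and 29 of them (90.6%) were called different (quasi-likelihood test on raw counts scaled to the block total, adjusted p of at most 0.05 and more than 2-fold). A name can pass the filter through the group in which it is high, so this share describes the names kept and not all microRNAs. Where a name passed in this way, its call adds nothing to its levels. There were 12 names (37.5%) higher in synaptosomes and 17 (53.1%) higher in neurites. The 12 names higher in synaptosomes all passed the filter through the synaptosomes alone. Of the 32 tested names, 26 had no overlap between the groups, and all 26 were called. Names that pass only through the group where they are high favour both outcomes, so this adds no separate support. The balance of directions depended on the scaling. With TMM factors it was 15 against 13, and with DESeq2's size factors 20 against 11. TMM moved the median log2 fold change by 3.04 and DESeq2 by 6.79. Under DESeq2 the 12 names higher in synaptosomes and 11 of the 17 higher in neurites kept their call, and let-7c-5p, let-7b-5p, let-7e-5p, let-7d-3p, miR-23b-3p and miR-298-5p changed sign. Ratios between microRNAs of the same library do not depend on the scaling.

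**Figure D2:**
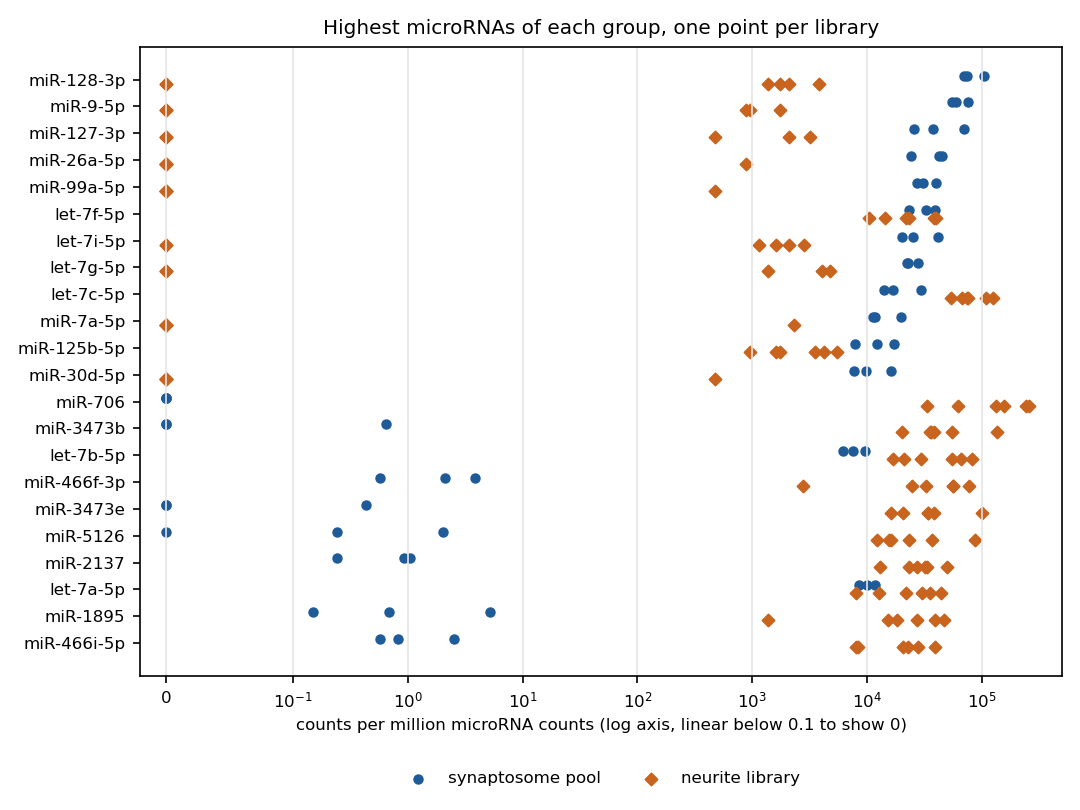
CPM (log axis, linear below 0.1) of the 12 highest microRNAs of each group; circles are the 3 synaptosome pools and diamonds the 6 neurite libraries. miR-128-3p to miR-99a-5p lay at 24330 CPM or more in every pool and at 3802 or less in every neurite library, whereas miR-706 had no count in any pool and 33058 to 255627 CPM in neurites.

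miR-706 was the most abundant name in neurites and had no count among 41174045 synaptosome counts. Its neurite libraries 1, 4, 5, 7, 11 and 42 held 228, 131, 24, 177, 115 and 159 counts, which is 131868, 62262, 33058, 155127, 242105 and 255627 CPM. Every neurite library thus lay far above every pool, and library 5 was the lowest. The mean of 146675 ± 90887 CPM (SD, n = 6) was 2013060-fold higher than the level that 3 counts over all pools would give.

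miR-3473b and miR-3473e, whose sequences differ only near the 3′ end, were both highest in library 7. miR-3473b had 35, 115, 28, 156, 17 and 22 counts in libraries 1, 4, 5, 7, 11 and 42 and a mean of 53558 ± 42187 CPM (SD, n = 6). In the pools it had 0, 9 and 0 counts. miR-3473e had 28, 72, 15, 114, 16 and 24 counts in the same order and a mean of 40543 ± 30344 CPM (SD, n = 6), against 0, 6 and 0 counts in the pools. Pool 2 was the only pool with any, and the near-identical names could share reads, so their levels are uncertain. Without library 7 both were called higher in neurites (edgeR, adjusted p of 1.46e-12 for miR-3473b and 2.57e-12 for miR-3473e). Both passed the filter through the neurites alone, so these calls add nothing to their levels.

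Names with 20 or more exact genome copies together took 21.8% ± 10.4 of neurite counts (SD, n = 6; 8.13% to 31.6%) and 0.00183% ± 0.000422 of synaptosome counts (SD, n = 3). The 3 of them that were tested, miR-706, miR-3473b and miR-690, were all called higher in neurites, beside 53.1% of all tested names. They had 0, 9 and 28 synaptosome counts and passed the filter through the neurites alone, so their calls add nothing to their levels. miR-690 had 18, 29, 7, 10, 15 and 9 counts in the neurite libraries and 0, 16 and 12 in the pools, a log2 fold change of -14.45 for synaptosomes over neurites (edgeR, adjusted p = 1.80e-08), or -15.19 without pool 2. Without these repeated names, and with library sizes reduced by their counts, edgeR tested 27 names and called 26, of which 11 were higher in synaptosomes and 15 in neurites. Whether reads under these names came from microRNA precursors was not tested.

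Further names with high neurite and low synaptosome levels were miR-2137, miR-5126, miR-1895, miR-5119 and miR-6240, whose sequences were 85.7%, 100%, 72.7%, 63.2% and 69.2% G and C. miR-2137 had 47, 67, 36, 38, 11 and 8 counts in the neurite libraries (29656 ± 12212 CPM; SD, n = 6) and 7, 13 and 5 counts in the pools, which made a log2 fold change of -15.30 (edgeR, adjusted p = 6.23e-09). miR-5126 had 21, 33, 63, 42, 11 and 10 counts and miR-6240 had 6, 15, 51, 18, 5 and 2. Library 5 was the highest for both, at 86777 and 70248 CPM. The same library was the lowest for miR-1895, with 1 count against 68, 32, 21, 13 and 29 in the others. miR-5119 went the other way and was highest in library 42, with 32 counts against 2, 12, 13, 12 and 10. In synaptosomes the means of miR-5126, miR-1895 and miR-5119 were 0.752, 2.00 and 0.105 CPM, and that of miR-6240 was 8.16 CPM. All 4 were called higher in neurites (edgeR, adjusted p of 1.43e-07, 4.13e-07, 4.95e-08 and 6.97e-07 in the order miR-5126, miR-1895, miR-5119 and miR-6240). Like miR-2137 they passed the filter through the neurites alone, so these calls add nothing to their levels. Their log2 fold changes of -15.25, -13.54, -16.76 and -11.11 depended on single libraries. That of miR-5126 was -17.32 without pool 2 and -14.64 without library 5, that of miR-1895 -15.60 without pool 2, that of miR-5119 -17.51 without pool 3 and -16.06 without library 42, and that of miR-6240 -9.93 without library 5.

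Names of the repeat-like families miR-466, miR-467, miR-669 and miR-297, many of which come from an intron of Sfmbt2, were numerous in the table (80 names). They took 7.81% ± 2.94 of neurite counts (SD, n = 6) and 0.0281% ± 0.00985 of synaptosome counts (SD, n = 3). miR-466f-3p had 98, 52, 2, 37, 37 and 35 counts in the neurite libraries and 26, 8 and 43 in the pools. miR-466i-5p had 39, 59, 15, 45, 4 and 5 counts and 17, 8 and 17 in the pools. Both were called higher in neurites (edgeR, log2 fold changes of -14.23 and -14.04, adjusted p of 7.24e-08 and 1.80e-08), with values of -14.88 and -14.85 without pool 1. They too passed the filter through the neurites alone, so the calls add nothing to their levels. Members of these families share reads, so their levels are uncertain.

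The sequences also differed in make-up. Among names with a RefSeq sequence, which held 93.3% to 94.96% of the counts per pool and 83.8% to 92.0% per neurite library, 80.8% ± 1.55 of synaptosome counts (SD, n = 3) and 33.3% ± 13.8 of neurite counts (SD, n = 6) fell on a microRNA that begins with U, the first base that Argonaute prefers. The neurite libraries ranged from 19.9% to 52.5% and the pools from 79.0% to 81.9%. The count-weighted content of G and C was 44.1% ± 0.864 and 51.9% ± 4.76. Library 5 had the highest value, 59.9%.

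The let-7 family, which restrains growth programmes in many tissues, was abundant in both groups. Together the 11 names took 13% ± 2.97 of counts in synaptosomes (SD, n = 3) and 19.1% ± 8.11 in neurites (SD, n = 6), with overlap between the libraries (10.2% to 16.1% and 12.2% to 31.1%). Of the 7 names tested, let-7g-5p and let-7i-5p were higher in synaptosomes, let-7c-5p, let-7b-5p and let-7e-5p were higher in neurites, and let-7a-5p and let-7f-5p were not called (edgeR, adjusted p of 0.0596 and 0.582). The 5 calls among 7 names stand beside 90.6% called among all tested names, 37.5% higher in synaptosomes and 53.1% in neurites. These neurite calls were lost with TMM, and under DESeq2 they turned to synaptosomes. let-7g-5p and let-7i-5p passed the filter through the synaptosomes alone and let-7e-5p through the neurites alone. The calls of these names add nothing to their levels. Shares within the family do not depend on the scaling.

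Within the family let-7c-5p took 15.1% ± 2.86 of let-7 counts in synaptosomes (SD, n = 3; 13.2% to 18.4%) and 46.1% ± 8.71 in neurites (SD, n = 6; 37.4% to 60.5%). let-7b-5p took 5.95% ± 0.0773 and 22.4% ± 6.94, with 13.1% in the lowest neurite library. let-7i-5p went the other way, with 21.8% ± 3.28 in synaptosomes and 0.719% ± 0.686 in neurites, and so did let-7g-5p, with 19.3% ± 4.86 and 0.626% ± 0.754. let-7f-5p took 24.1% ± 1.28 and 12.8% ± 3.26 of the family. For these 5 members the libraries of the groups did not overlap. let-7a-5p, which differs little from let-7c-5p and let-7f-5p in sequence, took 7.83% ± 0.577 and 12.8% ± 3.99, with overlap. Members of the family differ by few bases, and how reads were divided among them was not tested.

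**Figure D3:**
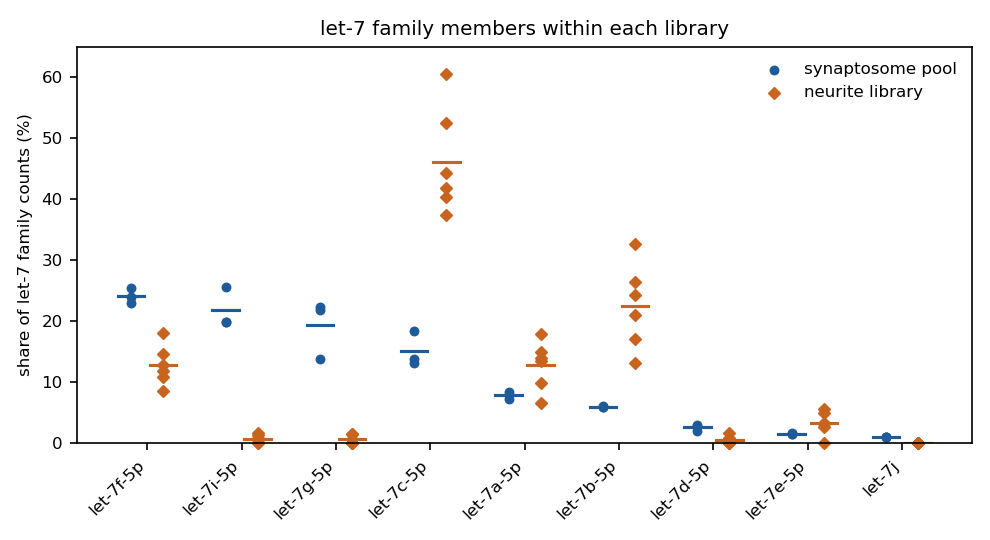
Share of let-7 family counts (vertical axis, %) for members with at least 1% in either group; circles are synaptosome pools, diamonds neurite libraries and bars group means. let-7c-5p took 37.4% to 60.5% of the family in neurites and 13.2% to 18.4% in synaptosomes, and let-7i-5p and let-7g-5p were close to 0 in neurites.

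In counts, let-7i-5p had 136531, 573550 and 520507 in the pools and 2, 6, 0, 0, 1 and 1 in the neurite libraries. At its synaptosome level 197 neurite counts were expected and 10 were observed (exact 95% Poisson interval 4.80 to 18.4, counting error only). let-7g-5p had 7, 10, 1, 0, 0 and 0 counts, 18 in all against 165 expected. let-7c-5p in turn had 189, 264, 55, 62, 32 and 46 counts, 648 in all against 137 expected. edgeR gave log2 fold changes of 4.41 for let-7i-5p (adjusted p = 2.30e-05), 3.49 for let-7g-5p (adjusted p = 0.000370) and -2.07 for let-7c-5p (adjusted p = 0.00273). let-7i-5p and let-7g-5p passed the filter through the synaptosomes alone, so their calls add nothing to their levels. Without library 4, which held 6 and 10 of their counts, the values of let-7i-5p and let-7g-5p were 5.07 and 4.08.

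let-7d showed opposite strands in the groups. In the pools the 5p strand held 83.1%, 91.0% and 84.8% of the counts of both strands. In neurite libraries 1, 4, 5, 7, 11 and 42 it held 16%, 18.2%, 0%, 0%, 20% and 0%, from 4, 4, 0, 0, 1 and 0 counts against 21, 18, 33, 12, 4 and 14 counts of the 3p strand. All neurite libraries thus lay below all pools, and the means were 86.3% ± 4.17 (SD, n = 3) and 9.03% ± 9.97 (SD, n = 6). The exact two-sided permutation test gave p = 0.0238, the smallest possible, and an adjusted p of 0.0714 over the 9 precursors tested. Of these 9, 0 (0%) passed an adjusted p of 0.05, and 3 had an unadjusted p of 0.0238. For the other 2 of those, let-7a-2 and let-7c-1, the means differed by less than 0.1 percentage points. let-7d-3p itself was called higher in neurites (edgeR, 34.4-fold by the means, adjusted p = 1.96e-05), whereas DESeq2's scaling put it higher in synaptosomes (log2 fold change 1.95, adjusted p = 0.0126). It passed the filter through the neurites alone, so the call adds nothing to its levels.

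For some further precursors with few neurite counts the pooled neurite share of 5p was lower than in the pools. They were chosen after their values were seen. miR-9, which gave 96.6% of its strand counts to 5p in the pools, had 6 counts of miR-9-5p and 8 of miR-9-3p in neurites, a 5p share of 42.9% (Wilson 95% interval 21.4% to 67.4%). miR-330 had 81.5% on 5p in the pools and 4 of 13 counts in neurites (30.8%, 12.7% to 57.6%). Library 5 held 8 of these 13, and without it 3 of 5 counts (60%) were on 5p, whereas without library 4 it was 1 of 9 (11.1%). miR-384 had 86.5% on 5p in the pools and 0 of 13 in neurites (up to 22.8%). miR-125b-2, miR-744 and miR-298 in contrast kept all neurite counts on 5p, the strand that also led in the pools. These pooled shares were not tested.

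The list of neuron-enriched microRNAs took a far higher share in synaptosomes. Its 14 names took 17% ± 1.80 of synaptosome counts (SD, n = 3) and 0.466% ± 0.281 of neurite counts (SD, n = 6). They had 40 neurite counts where 1156 were expected, of which miR-128-3p made up 567 and miR-9-5p 430. All 14 had counts in synaptosomes and 7 in neurites. Only miR-128-3p, miR-9-5p and miR-218-5p passed the filter, and all 3 were called higher in synaptosomes, where 90.6% of all tested names were called and 37.5% were higher in synaptosomes. They passed the filter through the synaptosomes alone, so their calls add nothing to their levels.

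miR-128-3p was the highest microRNA of synaptosomes, with 504115, 981178 and 2155016 counts in the pools. The neurite libraries had 3, 8, 1, 0, 1 and 0 counts, where 144, 176, 60.6, 95.3, 39.7 and 51.9 were expected at the synaptosome level. Every neurite library lay below its expectation. The means were 83482 ± 18670 CPM (SD, n = 3) and 1503 ± 1431 CPM (SD, n = 6), with a log2 fold change of 5.62 (edgeR, adjusted p = 1.55e-06), or 6.33 without library 4. As miR-128-3p passed the filter through the synaptosomes alone, the call adds nothing to its levels.

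miR-9-5p had 506343, 765516 and 1222324 counts in the pools and 3, 2, 0, 1, 0 and 0 in the neurite libraries, with 430 expected over all 6. Its log2 fold change was 6.28 (edgeR, adjusted p = 4.13e-07), a call that adds nothing to its levels because it passed the filter through the synaptosomes alone. miR-124-3p, the neuronal microRNA that promotes differentiation, was only 24th in synaptosomes, at 4790 ± 2307 CPM (SD, n = 3), and had 3, 4, 0, 0, 0 and 1 neurite counts with 32.6 expected. miR-9-3p, the other strand of miR-9, had 8 neurite counts with 18 expected, and its levels overlapped between the groups. miR-218-5p had 49171, 153483 and 159058 counts in the pools and no neurite count, which makes it at least 19.7-fold higher in synaptosomes. These neuronal markers of the labelled tissue were thus present in every pool, and had few or no counts in neurites.

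The imprinted Dlk1-Dio3 cluster, whose microRNAs are abundant in brain, took 8.04% ± 3.26 of synaptosome counts (SD, n = 3) and 1.44% ± 0.428 of neurite counts (SD, n = 6). All 38 names had counts in synaptosomes and 21 in neurites. miR-127-3p was its highest member, with 25667, 70398 and 37369 CPM in the pools and 0, 1, 0, 0, 1 and 2 neurite counts. It was the only one tested and was called higher in synaptosomes (edgeR, log2 fold change 6.08, adjusted p = 6.71e-06). It passed the filter through the synaptosomes alone, so the call adds nothing to its levels. Library 42 held 2 of its 4 neurite counts, and without it the log2 fold change was 7.06. miR-381-3p had no neurite count where 29.4 were expected, so it was at least 9.81-fold higher in synaptosomes. The cluster was not lower throughout. Of the 38 names, 13 had an expected neurite count above the upper bound of the exact 95% Poisson interval of the observed count, 21 within it and 4 below it. The 4 were miR-323-3p (15 counts with 3.8 expected), miR-667-3p (9 with 0.340), miR-329-3p (5 with 0.713) and miR-665-3p (3 with 0.0364). miR-382-5p lay at 1769 ± 700 CPM in synaptosomes (SD, n = 3) and 1761 ± 1322 in neurites (SD, n = 6), 13 counts with 12 expected. miR-127-5p had 4 counts with 4.99 expected, whereas miR-127-3p from the other strand of its precursor had 4 with 302 expected.

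The miR-26, miR-99/100 and miR-30 families had fewer neurite counts than expected at the synaptosome level. miR-26a-5p and miR-26b-5p (seed UCAAGUA) took 4.03% ± 1.33 of synaptosome counts (SD, n = 3), with 1 neurite count where 274 were expected. miR-99a-5p, miR-100-5p and miR-99b-5p (seed ACCCGUA) took 4.15% ± 0.722, with 2 neurite counts where 282 were expected. For miR-26a-5p alone the ratio of expected to observed counts was 253 (95% counting interval 45.4 to 9986) and for miR-99a-5p it was 221.8 (39.8 to 8760). The miR-30 family, which took 2.51% ± 1.13 of synaptosome counts, had 4 neurite counts with 171 expected. miR-30d-5p had 1 of them, in library 4, and miR-30a-5p none, at least 15-fold higher in synaptosomes. miR-7a-5p, whose 4 counts all lay in library 1, was called higher in synaptosomes (edgeR, log2 fold change 4.68, adjusted p = 5.26e-05), and without library 1 it had no neurite count left. As it passed the filter through the synaptosomes alone, the call adds nothing to its levels.

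Other families lay closer to the synaptosome level. miR-125b-5p, the mammalian relative of the worm microRNA lin-4, had 3, 2, 4, 4, 2 and 1 counts and was the only microRNA called higher in synaptosomes that was seen in all 6 neurite libraries. It had 16 counts against 84.8 expected (edgeR, log2 fold change 2.22, adjusted p = 0.00241). As it passed the filter through the synaptosomes alone, the call adds nothing to its levels. The miR-23/27/24 clusters were split. miR-23b-3p had 44 neurite counts with 5.91 expected and was called higher in neurites, although TMM and DESeq2 turned its sign. As it passed the filter through the neurites alone, the call adds nothing to its levels. miR-24-3p had 19 with 9.42 expected, and miR-27b-3p, from the same cluster as miR-23b-3p, had 2 with 28.3 expected. The miR-17-92 and related clusters, which drive proliferation, had 13 counts with 16.1 expected. miR-328-3p was tested and not called (edgeR, log2 fold change 0.69, adjusted p = 0.308), with 5, 11, 10, 2, 2 and 1 counts.

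**Figure D4:**
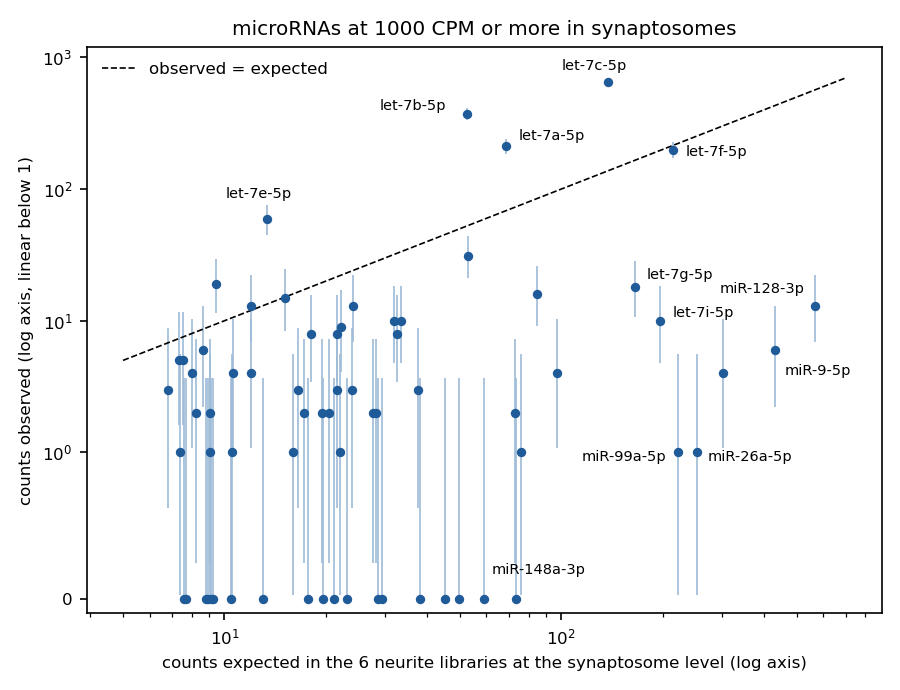
Neurite counts observed (vertical axis, log, linear below 1) against the counts expected at the mean synaptosome level (horizontal axis, log) for the 69 microRNAs at 1000 CPM or more in synaptosomes; bars are exact 95% Poisson intervals and the dashed line marks equality. Of the 69, 56 lay below the line by more than their interval, 8 had it within their interval, and 5 lay above it, for names chosen by their synaptosome level, with let-7c-5p, let-7b-5p, let-7a-5p and let-7e-5p among them.

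Over the 69 microRNAs at 1000 CPM or more in synaptosomes, 4063 neurite counts were expected and 1769 were observed. For 56 of them the expected count was above the upper bound of the exact 95% Poisson interval, for 8 within it and for 5 below it. These names were chosen for a high synaptosome level, which also sets the expectation, so the choice itself favours counts below it. Among the 61 names at 1000 CPM or more in neurites the tally was 10 above, 4 within and 47 below, and among all 1067 names with a count it was 71, 857 and 139. The 5 of the 69 were let-7e-5p, let-7c-5p, let-7b-5p, let-7a-5p and miR-24-3p. There were 19 without any neurite count, for which 480 were expected, and 21 with 1 to 3. The 6 of highest level among the 19 were miR-148a-3p, miR-218-5p, miR-181a-5p, miR-30a-5p, miR-100-5p and miR-381-3p. miR-148a-3p varied widely among the pools, at 4595, 21470 and 6392 CPM, and was at least 24.5-fold higher in synaptosomes by its mean. The expectation assumes that microRNA counts are shared out alike in both groups.

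The microRNAs that the study named as network hubs lay on both sides. The study chose them on these libraries, so their levels are no independent evidence. miR-9-5p, let-7i-5p and miR-181a-5p were called higher in synaptosomes. They passed the filter through the synaptosomes alone, so their calls add nothing to their levels. let-7b-5p and let-7c-5p were called higher in neurites with scaling to the block total, and not with TMM or DESeq2. miR-181a-5p, which in rat neurons acts on the AMPA receptor subunit Gria2, had 52382, 82990 and 168788 counts in the pools and none in neurites, at least 16.6-fold higher in synaptosomes. miR-27b-3p had 2 neurite counts with 28.3 expected. miR-22-3p had none with 9.23 expected, at least 3.08-fold higher in synaptosomes. miR-124-5p lay at 37.0 ± 17 CPM in synaptosomes (SD, n = 3), below what the neurite depth could show.

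microRNAs known for acting at synapses were a small part of both. The 8 names of this list took 1.1% ± 0.110 of synaptosome counts (SD, n = 3) and 0.169% ± 0.172 of neurite counts (SD, n = 6). They had 10 neurite counts where 74.6 were expected, and only miR-181a-5p passed the filter. miR-132-3p, which is induced by CREB, had 1 neurite count with 7.38 expected. miR-138-5p and miR-137-3p had none, with 3.29 and 3.28 expected. miR-134-5p, which in rat neurons limits spine size, had 3 with 1.87 expected.

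Markers of other cell types took shares that differed by cell type. Microglia and immune cell microRNAs took 0.111% to 0.129% of synaptosome counts (6 of 6 names seen), mostly miR-146a-5p at 1118 ± 101 CPM (SD, n = 3). In the pools miR-142a-5p lay at 45.4 CPM and the others at 3.78 CPM or less. In neurites 0 of 6 were seen, where 7.98 counts were expected, 7.60 of them for miR-146a-5p. Of 3 red blood cell names, 2 were seen in synaptosomes, at 0.0184% to 0.0231% of counts, and 0 in neurites. Oligodendrocyte names (3 of 3 and 1 of 3 seen) took 0.0917% to 0.155% and 0% to 0.211%. Vessel names (4 of 4 and 1 of 4 seen) took 0.0615% to 0.108% and 0% to 0.174%. Choroid plexus and ependyma names (5 of 5 and 1 of 5 seen) took 0.112% to 0.250% and 0% to 0.0951%. Astrocyte names (5 of 5 and 3 of 5 seen) took 0.484% to 2.45% and 0% to 0.428%. miR-29a-3p, which is not restricted to astrocytes, was the highest of them, 14th among synaptosome microRNAs, and had 2 neurite counts with 72.8 expected, whereas miR-23a-3p held 14 of the 20 neurite counts of the list. Names of other tissues such as liver, muscle and pancreas (9 of 9 and 1 of 9 seen) took 0.0634% to 0.0813% and 0% to 0.482%. The part of other cell types in the differences was not tested, and fewer cells of a type and less RNA per cell cannot be told apart.

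Among the 112 microRNAs at 1000 CPM or more in either group, log2(CPM + 1000) correlated at 0.876 to 0.976 between the pools and at 0.603 to 0.903 between the neurite libraries. Between a pool and a neurite library the correlation was -0.259 to -0.00520. These values are across microRNAs within pairs of libraries and are a description, since the names were taken for being high in a group.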

How the data were processed

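MicroRNA counts were taken from 3 synaptosome and 6 neurite small RNA libraries. Per the labels and the study's methods, reads were converted by the authors (bcl2fastq 2.20.2), freed of adapters (cutadapt 1.11.0), aligned to mm10 with Bowtie 1.1.2 through mirdeep2, and counted over microRNAs of miRBase and snoRNAs of snOPY. The deposited counts are raw reads per entry, with no normalization by the authors and no molecular identifiers, so intervals and floors cover counting error only. The table has 2128 entries for 1978 names. Each name kept its highest entry, and CPM were scaled to the total of all entries. The 18 columns of scaled values that the authors added were not used.

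edgeR 4.0.16 (filterByExpr, glmQLFit, Benjamini-Hochberg) and, as an alternative, DESeq2 1.42.0 were run in R 4.3.3 and tested on simulated data. No covariate was used. Shares and single values were compared with an exact two-sided permutation test over the 84 splits, with the smaller tail doubled. A strand share needed 5 counts over both strands in every library. Other steps used scipy 1.17.1, pandas 2.3.3, numpy 2.4.6 and, for plots, matplotlib 3.10.9 (Python 3.11.15). Mature sequences, positions and exact copies come from RefSeq on GRCm38.p6 (1679 of 1978 names matched), the assembly also known as mm10, and transcripts from GENCODE.

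The members, the lists and the rule for named microRNAs were chosen with earlier results of these data known. Named were the 12 highest of each group, the 8 called of largest fold change in each direction, the study's hubs, up to 4 members of each list and any against its list, precursors of the strand comparison, the 6 highest in synaptosomes with no neurite count and the 6 high in neurites with the lowest synaptosome level. Alternatives were other scalings, filters, minimums, the sum of entries and each library left out.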

Additional observations from a re-analysis of the deposited data

Results flagged for a closer look

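In 20 of 73 groups of 6 neurite values, 1 library lay far from the other 5 by the cutoff of Dixon's test at the 95% level. A chance rate of 1 in 20 does not hold for such low counts, since 1 library with a count beside 5 at 0 is always flagged. Some groups also share values, such as a family and its member. No excess over chance can be read from the number flagged. No cause was tested.

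Library 7 stood apart for miR-3473b, at 136722 CPM with the next at 54658, and for miR-3473e, at 99912 CPM with the next at 38585. Library 5 stood apart for miR-5126 (86777 CPM, next 36810), miR-6240 (70248 CPM, next 15776) and miR-328-3p (13774 CPM, next 5228). Library 11 stood apart for miR-690 (31579 CPM, next 14470).

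Some values rested on very few counts in a single library while the other 5 were at 0. They were miR-26a-5p at 876 CPM in library 7, miR-30d-5p and miR-99a-5p at 475 CPM each in library 4, and miR-7a-5p at 2313 CPM in library 1. The same holds for the miR-26 family (0.0876% of counts), the family of miR-221 and miR-222 (0.116%), the oligodendrocyte names (0.211%) and the choroid plexus and ependyma names (0.0951%). The miR-99/100 family reached 0.138% with the next at 0.0475%, and names of other tissues reached 0.482% with the next at 0.0876%.

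The 5p share of let-7a-1 was 71.4% in the lowest library with the next at 96.8%, that of let-7c-2 95.8% with the next at 98.9%, that of let-7f-1 81.8% with the next at 94.1%, and that of let-7f-2 98.8% with the others at 100%.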

How the results depend on the processing

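Without a filter 173 of 1067 names were called (16.2%, 52 higher in synaptosomes, 121 in neurites), and with a mean of 1000 CPM 93 of 112 (83%, 48 and 45), against 29 of 32 (90.6%). DESeq2 called 20 and 11, and TMM 15 and 13. Leaving out a library gave 26 to 32 calls in all, 11 to 15 for synaptosomes and 15 to 18 for neurites. Under TMM the log2 fold changes that turned to synaptosomes were 1.72 for let-7a-5p, 0.57 for let-7b-5p, 1.12 for let-7c-5p, 1.2 for let-7e-5p and 0.15 for miR-23b-3p. Under TMMwsp, a TMM variant for zeros, they were 1.06 for let-7a-5p, 0.31 for let-7c-5p and 0.49 for let-7e-5p. Under DESeq2 they were 5.4 for let-7a-5p, 4.23 for let-7b-5p, 4.83 for let-7c-5p, 4.89 for let-7e-5p, 1.95 for let-7d-3p, 4.03 for miR-23b-3p and 1.01 for miR-298-5p. let-7e-5p lost its call without any 1 of the pools. let-7f-5p and miR-328-3p became called under all 3 of these scalings, miR-328-3p also without library 5 (log2 fold change 1.26), and let-7a-5p higher in neurites without library 42 (-1.53) or without repeated names (-1.66) but higher in synaptosomes under TMM and DESeq2 (edgeR adjusted p = 0.0311 and DESeq2 adjusted p = 1.05e-09). Counting splits by absolute size, added after seeing the data, called 3 precursors in place of 0. Without a synaptosome pool the smallest possible p is 0.0714, and the difference in microRNA share was 95.3 to 96.8 percentage points over all libraries left out. The difference in names at equal depth was then 3.45 to 7.19, and that of the let-7d 5p share 74.9 to 79.5 percentage points. No paired analysis was possible because the library numbers of the groups come from different preparations and pair no animals. Depth limits the neurites: below 441 CPM a microRNA could go unseen in all 6 libraries.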

Other observations

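miR-126a, an endothelial microRNA, had 6 neurite counts of its 5p strand, where 0.0778 were expected at the synaptosome level, and 0 of its 3p strand, where 3.39 were expected. miR-1a-3p, a muscle microRNA, had 4 neurite counts with 2.68 expected. miR-298-5p, at 71.5 ± 18.3 CPM in synaptosomes (SD, n = 3), had 3, 0, 9, 9, 4 and 1 counts in neurite libraries 1, 4, 5, 7, 11 and 42. miR-744-5p had 25 neurite counts with 3.27 expected, and 15 of them lay in library 5. miR-331-3p had 19 with 0.178 expected, and 13 of them lay in library 5. These microRNAs were chosen after their values were seen.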
